A study of Mus musculus with 14 samples.

Results

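The genes described here encode 9 components of the renin-angiotensin system: Ren1, Agt, Ace, Agtr1a, Agtr1b, Mas1, Enpep, Mme and Anpep. They were taken by name, all of them autosomal, out of 47042 autosomal genes of the RefSeq annotation of mouse genome build GRCm38.p6 (mm10). For each gene, the H3K9cr and H3K9ac peaks in the gene body and within 10 kb of either gene end were listed in 14 ChIP-seq libraries of mouse kidney tissue. H3K9cr (crotonylation of lysine 9 of histone H3) was measured in 8 libraries and H3K9ac (acetylation of the same lysine) in 6. The groups were WT control, ACSS2-/- control, WT UUO and ACSS2-/- UUO. UUO is unilateral ureteric obstruction, in which the left ureter is ligated. ACSS2-/- mice carry a knockout of the acyl-CoA synthetase ACSS2, for which the labels name no cell type or driver. In the study this name stands for the global knockout, as distinct from its tubule-specific knockout. The study used C57BL/6J mice and ACSS2 knockout mice of 6 to 8 weeks, and the sources used here do not state the background strain of the knockout. Each group had 2 H3K9cr libraries. The UUO groups had 2 H3K9ac libraries each and the control groups 1 each. The labels give neither the time after surgery nor whether control kidneys were sham-operated, and nothing in them ties libraries to separate animals, so p-values measure only the spread between these libraries.

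In the renin-angiotensin system, renin cleaves angiotensinogen to angiotensin I, which angiotensin-converting enzyme trims to angiotensin II. Angiotensin II acts through type 1 receptors, while membrane peptidases of the tubular brush border trim the angiotensins further and produce, among others, the peptide that acts through the Mas receptor. In the kidney renin is made by the few juxtaglomerular cells of the afferent arteriole, and most angiotensinogen and brush border peptidases by the proximal tubule. H3K9cr and H3K9ac are both marks of active promoters and enhancers. Kidney tissue holds many cell types, so fewer cells of a type and less of a mark per cell cannot be told apart.

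The measure was the covered length, the number of base pairs of the gene window that lie under peaks. The lists give peak positions but no heights, and read depth is unknown, so lengths are read beside each library's total. The libraries held 27530 to 45014 H3K9cr peaks and 15988 to 32760 H3K9ac peaks, and the mean total length covered after UUO was 0.734 of that in control for H3K9cr and 0.522 for H3K9ac. Peaks on chromosome Y were listed in 5 of the 8 H3K9cr libraries, namely both of ACSS2-/- control and 1 of 2 in each other group, and in 3 of the 6 H3K9ac libraries, both controls and 1 of 4 after UUO. The labels give no sex, and in H3K9ac the presence of these peaks and the operation cannot be fully told apart. Among lists of kidney cell markers, the proximal tubule markers covered 59.4 to 115 kb in the control H3K9cr libraries and 20.5 to 31.6 kb after UUO, so every H3K9cr library carried the mark at kidney tubule genes.

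The promoters of 8 of the 9 genes are in the RefSeq promoter table, Agtr1a being without an entry. The 250 bases before the start site are shown for Ren1 and Agt, which feed the pathway and had a peak at the start in none or some of the libraries, and for Enpep and Anpep, whose start carried H3K9cr in every library. Capitals mark matches to TATAAA or GGGCGG on either strand.
Ren1, chr1:133350424-133350673, plus strand: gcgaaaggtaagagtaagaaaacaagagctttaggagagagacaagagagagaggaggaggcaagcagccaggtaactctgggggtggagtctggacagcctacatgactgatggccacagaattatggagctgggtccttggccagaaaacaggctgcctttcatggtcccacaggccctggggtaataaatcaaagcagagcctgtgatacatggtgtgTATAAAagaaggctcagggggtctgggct
Agt, chr8:124569707-124569956, minus strand: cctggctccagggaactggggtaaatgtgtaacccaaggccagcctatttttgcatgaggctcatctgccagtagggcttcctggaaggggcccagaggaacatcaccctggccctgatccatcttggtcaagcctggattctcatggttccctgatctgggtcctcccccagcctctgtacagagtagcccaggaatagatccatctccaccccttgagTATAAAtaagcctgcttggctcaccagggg
Enpep, chr3:129332750-129332999, minus strand: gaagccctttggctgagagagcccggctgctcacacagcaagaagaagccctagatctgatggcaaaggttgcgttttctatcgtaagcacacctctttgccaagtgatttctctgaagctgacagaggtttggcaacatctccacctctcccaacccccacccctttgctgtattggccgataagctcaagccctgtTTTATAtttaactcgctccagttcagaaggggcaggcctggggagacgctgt
Anpep, chr7:79848211-79848460, minus strand: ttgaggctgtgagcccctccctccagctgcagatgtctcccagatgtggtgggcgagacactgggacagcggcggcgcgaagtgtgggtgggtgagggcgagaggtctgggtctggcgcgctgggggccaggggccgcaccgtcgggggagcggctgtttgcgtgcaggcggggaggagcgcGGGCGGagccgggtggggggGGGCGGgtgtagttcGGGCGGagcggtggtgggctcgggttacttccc

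TATAAA, the TATA box, began 29 bases before the start in Ren1, 30 in Agt and 31 in Ace and Agtr1b, on the plus strand of the gene except in Ace, and in Enpep it was found on the opposite strand, 52 bases before the start and again across the start itself. In all, 5 of the 11 promoters annotated for the 8 genes held it, against 13.6% of 31396 autosomal RefSeq promoters of 300 bases. GGGCGG, the core of sites for SP factors, was found in Ace, Mme and Anpep, against 36% of promoters. The 300-base promoter held 1 CpG in Ren1, 1 in Agt and 2 in Mas1, against 28 in Anpep, 29 at the first start of Ace and 29 to 32 at the later starts of Mme, with a median of 7 over all promoters. GTTAAT (part of the HNF1 site), CAAAGTCCA (HNF4), CCGGAAGT (ETS factors) and TGACGTCA (CREB) were searched on both strands and gave no match in these windows, and 7.12%, 0.487%, 3.95% and 1.83% of promoters held them.

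The 9 gene windows held 173 peaks of 308 to 4020 bp, with a median of 751 bp. Merged over the 14 libraries they made 38 regions at 8 genes: 3 at Ren1, 5 at Agt, 2 at Ace, 5 at Agtr1a, 5 at Mas1, 7 at Enpep, 5 at Mme and 6 at Anpep. The window of Agtr1b, the second type 1 receptor gene of mice (chr3:20314473-20367177, minus strand), held no peak of either mark in any of the 14 libraries. Of the 38 regions, 16 were seen in 1 library only and 3 in all 14. H3K9ac was found in 15 regions, 5 of which never carried H3K9cr, and 23 regions carried H3K9cr alone.

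**Figure D1:**
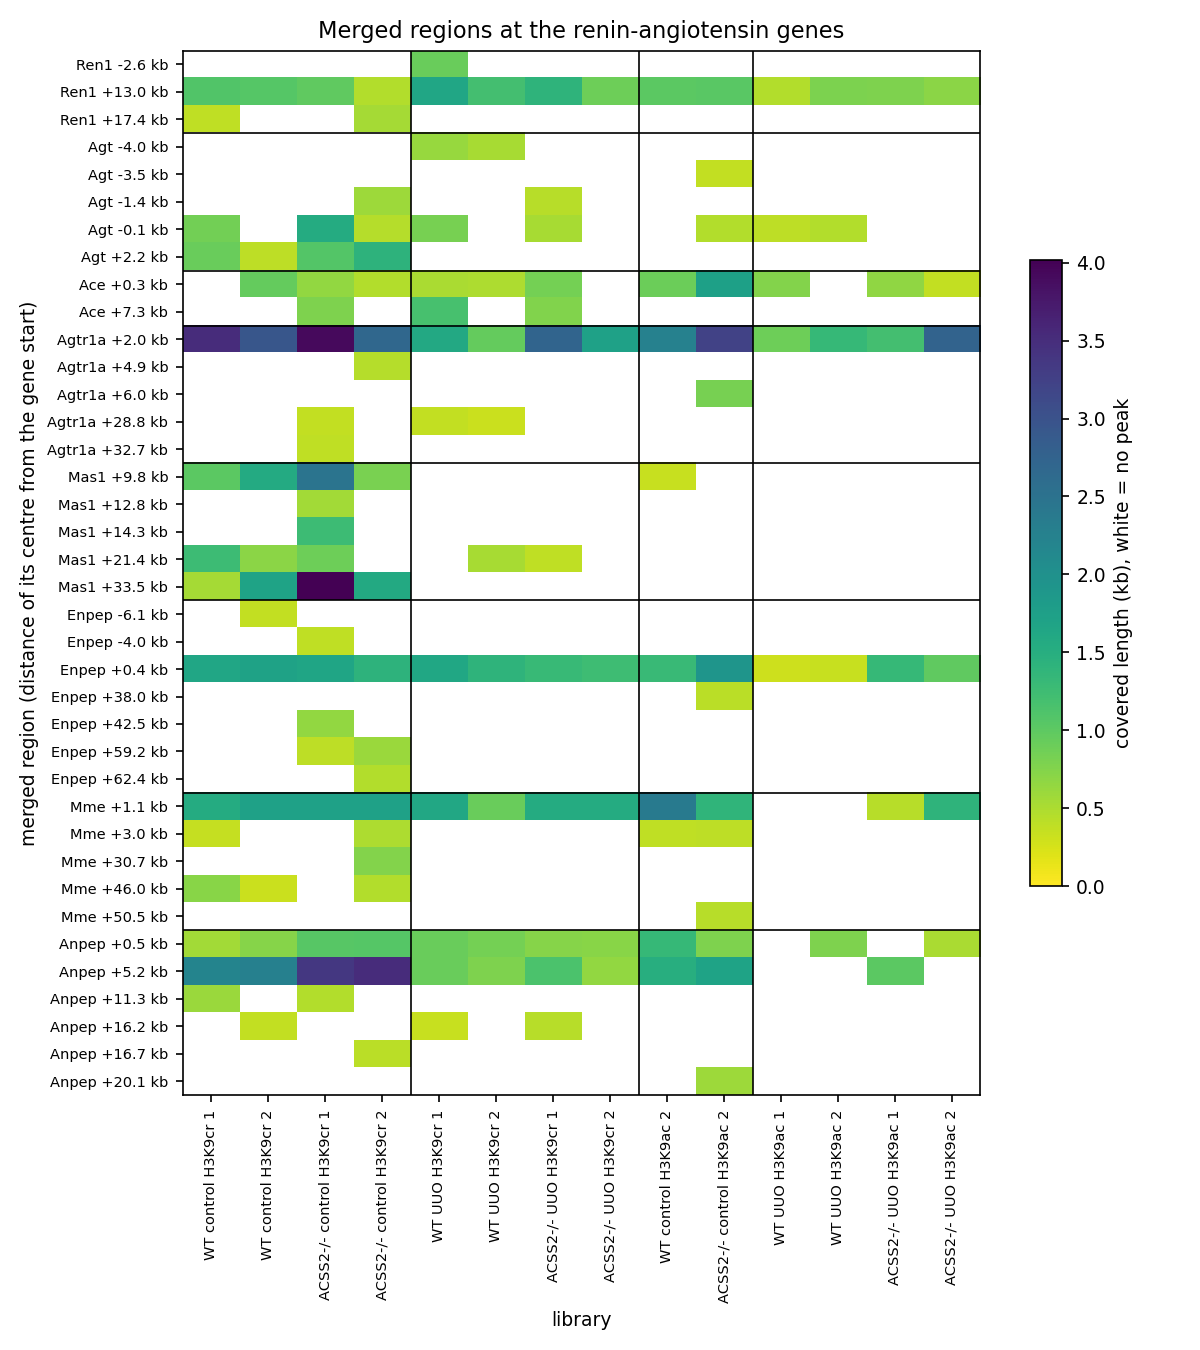
Covered length in kb (colour) of each of the 38 merged regions (rows, named by gene and distance of the centre from the gene start, in kb) in each of the 14 libraries (columns), with white for no peak. A single row each of Ren1, Agtr1a and Enpep is filled in all 14 columns, and the Agt region inside the gene and 2 Mas1 regions are filled in all 4 control H3K9cr columns and no UUO column. For Agtr1a, whose strand is not given, distances are from the end with the lower coordinate.

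A peak within 1 kb of the start was present in all 8 H3K9cr and all 6 H3K9ac libraries for Enpep and for Agtr1a, where either gene end was accepted. Mme and Anpep had one in 8 H3K9cr and 4 H3K9ac libraries, Ace in 6 and 5, and Agt in 5 and 3. Ren1, Mas1 and Agtr1b had none. Over 16457 protein-coding genes, 50.9 to 59.4% had such a peak in a library.

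Ren1 encodes renin, the aspartyl protease that starts the cascade (chr1:133350674-133360320, plus strand). Its body carried no peak of either mark. A single peak lay upstream, 2140 bp before the start (chr1:133347622-133348534), and it was in WT UUO H3K9cr replicate 1 only. The remaining peaks lay downstream in the gene Etnk2, an ethanolamine kinase, whose own start falls in the larger region (chr1:133362822-133364534). In the rest of the text, values of 4 libraries stand in the order WT replicate 1, WT replicate 2, ACSS2-/- replicate 1 and ACSS2-/- replicate 2, and values of the 2 H3K9ac control libraries in the order WT, ACSS2-/-. H3K9cr at that region covered 1089, 1067, 981 and 469 bp in control and 1639, 1198, 1404 and 891 bp after UUO. The groups overlapped. H3K9ac there covered 1015 and 1033 bp in control and 468, 797, 779 and 699 bp after UUO, and all UUO libraries lay below both controls. With the 2 other regions, the Ren1 window held 1478, 1067, 981 and 1017 bp of H3K9cr in control and 2552, 1198, 1404 and 891 bp after UUO. The values of Ren1 in the comparisons below are thus, apart from that upstream peak, values of peaks in Etnk2.

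Agt encodes angiotensinogen, the substrate of renin (chr8:124556587-124569706, minus strand). Its promoter region (chr8:124569005-124570606) carried H3K9cr in 3 of 4 control and 2 of 4 UUO libraries. Inside the gene, 1330 bp after the start, lay a second region (chr8:124566601-124568376) that was covered by H3K9cr over 914, 404, 1071 and 1421 bp in control and by no peak in any UUO library. It carried H3K9ac in none of the 6 libraries. Upstream, a region 3742 bp before the start (chr8:124573448-124574061) was found in both WT UUO H3K9cr libraries, over 614 and 530 bp, and in no other. It lies nearer to the start of the neighbouring gene Capn9, at 2050 bp, than to that of Agt. With all its regions, Agt had 1762, 404, 2624 and 2467 bp of H3K9cr in control and 1434, 530, 949 and 0 bp after UUO. The groups overlapped through WT control replicate 2, which was below 3 of the UUO libraries.

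**Figure D2:**
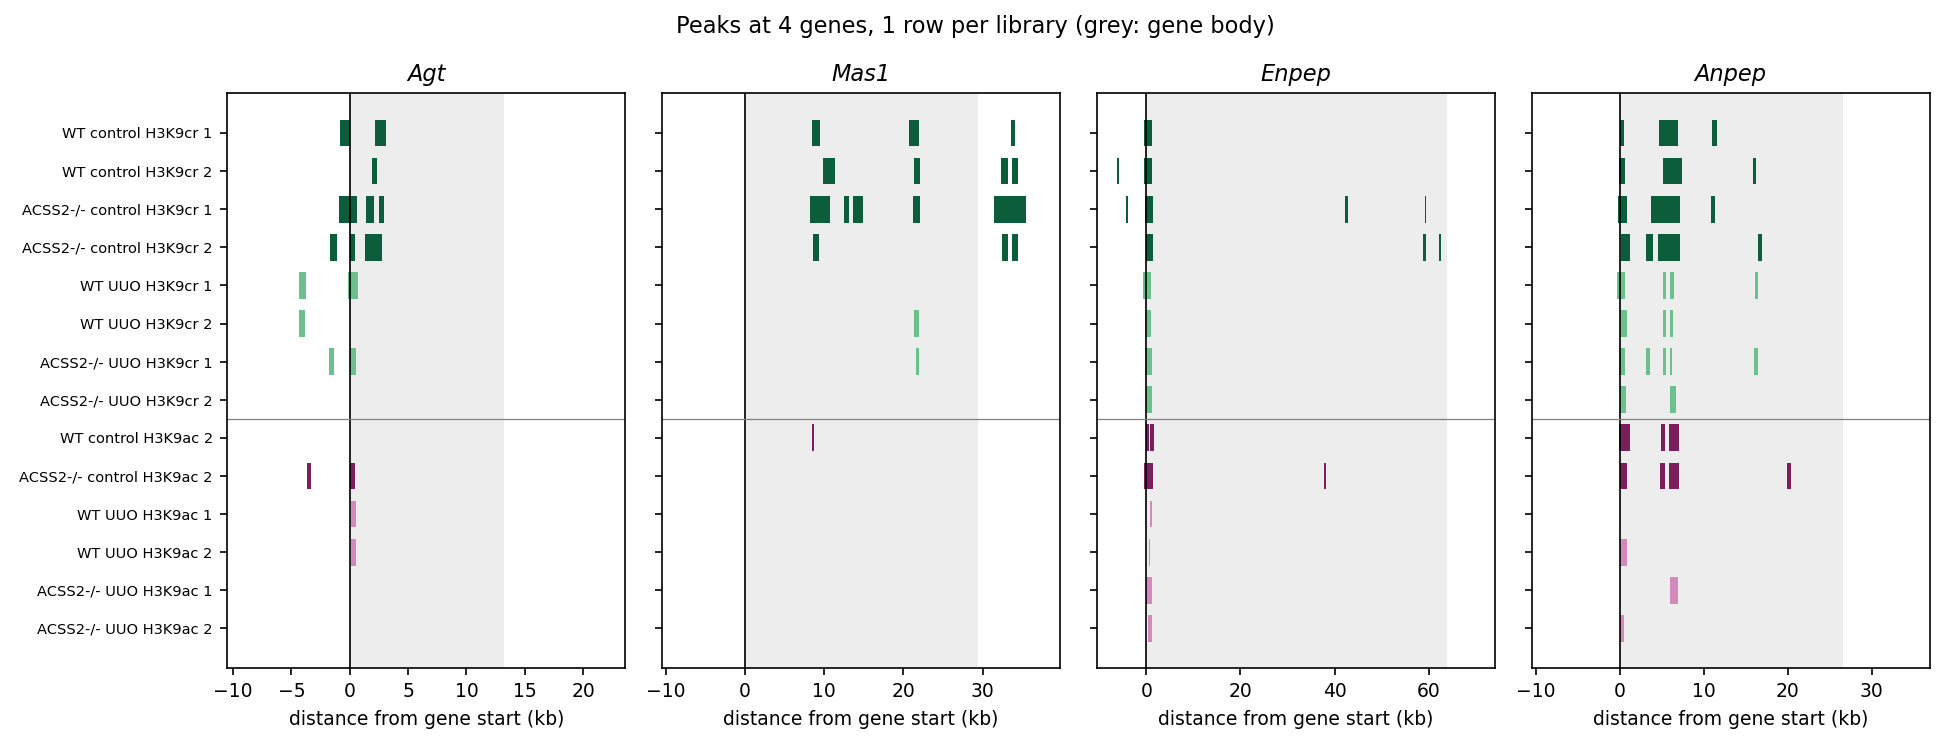
Each bar is a peak, placed by its distance from the gene start in kb (x axis), with 1 row per library and the gene body in grey, for Agt, Mas1, Enpep and Anpep. Dark and light green are H3K9cr in control and UUO, dark and light purple H3K9ac in control and UUO. The peaks of Enpep at the start appear in every row, whereas those of Mas1 lie away from the start and are found in the 4 control H3K9cr rows, 2 UUO H3K9cr rows and 1 H3K9ac row.

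Ace encodes angiotensin-converting enzyme (chr11:105967948-105989964, plus strand), which in kidney is found on endothelium and on the proximal tubule brush border. The region at its first start (chr11:105967419-105969158) was covered by H3K9cr over 0, 952, 650 and 462 bp in control and 518, 499, 841 and 0 bp after UUO. These groups overlapped. H3K9ac covered it over 902 and 1740 bp in control and 743, 0, 663 and 375 bp after UUO, the UUO libraries all being below the controls. A region at the second annotated start inside the gene (chr11:105974617-105975946), from which a shorter form of the enzyme is known to be made in male germ cells, carried H3K9cr in 1 control library over 771 bp and in 2 UUO libraries over 1167 and 765 bp, and no H3K9ac. The gene model Gm11651 overlaps both regions, and peaks carry no strand to tell it from Ace. Over the window, Ace had 0, 952, 1421 and 462 bp of H3K9cr in control and 1685, 499, 1606 and 0 bp after UUO.

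Agtr1a encodes the main type 1 angiotensin II receptor of the mouse kidney (chr13:30336356-30382867, strand not in the table used). One region near the end with the lower coordinate (chr13:30336367-30340332) held most of its marks. H3K9cr over the whole gene window was 3503, 2942, 4667 and 3119 bp in control and 1969, 1269, 2725 and 1720 bp after UUO. Each UUO library was below every control. For H3K9ac the values were 2260 and 4060 bp in control and 886, 1327, 1207 and 2742 bp after UUO, and the ACSS2-/- UUO replicate 2 library lay between the controls.

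Mas1 encodes the receptor Mas (chr17:12838841-12868150, minus strand). Its start carried no peak. All 5 of its regions overlap Airn, the long non-coding RNA of the imprinted Igf2r locus, whose annotation runs through Mas1. Peaks carry no strand to tell Airn from Mas1. One region lay inside Mas1, 8224 bp after the start (chr17:12856740-12859926), where H3K9cr covered 1013, 1564, 2473 and 814 bp in control. Another lay beyond its 3′ end (chr17:12832672-12836691), with 540, 1687, 4020 and 1580 bp in control. Neither had an H3K9cr peak after UUO. One more (chr17:12846062-12847426) was found in 3 control and 2 UUO libraries. The window as a whole held 2824, 3954, 9194 and 2394 bp of H3K9cr in control and 0, 526, 390 and 0 bp after UUO, and all UUO libraries were below all controls. H3K9ac at Mas1 amounted to 1 peak of 330 bp in the WT control library.

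Enpep encodes aminopeptidase A, which removes the first residue of angiotensin II (chr3:129269177-129332749, minus strand). The region at its start (chr3:129331149-129333453) was covered by H3K9cr over 1641, 1708, 1656 and 1427 bp in control and 1620, 1399, 1317 and 1248 bp after UUO, which overlap. The other 6 regions, upstream and far inside the gene, were each seen in 1 or 2 control libraries and never after UUO. Of these, the region at chr3:129294522-129294938 carried H3K9ac only. With the rest, the window held 1641, 2081, 3099 and 2480 bp of H3K9cr in control and 1620, 1399, 1317 and 1248 bp after UUO. These do not overlap, by a margin of 1641 against 1620 bp. H3K9ac at the start covered 1289 and 1924 bp in control. After UUO it covered 313 and 338 bp in WT and 1323 and 977 bp in ACSS2-/-.

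Mme encodes neprilysin (chr3:63295211-63383713, plus strand), an endopeptidase that forms angiotensin-(1-7) from angiotensin I. The region over its 3 annotated starts (chr3:63295169-63297551) carried H3K9cr over 1539, 1712, 1719 and 1726 bp in control and 1609, 912, 1542 and 1542 bp after UUO, which overlap, 3 of the 4 UUO libraries being above WT control replicate 1. A region about the middle of the gene (chr3:63340807-63341514) had H3K9cr in 3 control libraries, over 708, 328 and 456 bp, and in no UUO library. The whole window held 2601, 2040, 1719 and 3423 bp in control and 1609, 912, 1542 and 1542 bp after UUO, and these do not overlap. H3K9ac over the gene window was 2737 and 2225 bp in control and 0, 0, 435 and 1408 bp after UUO. Both WT UUO libraries had no H3K9ac peak at Mme.

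Anpep encodes aminopeptidase N, an abundant brush border enzyme that acts on angiotensin III (chr7:79821803-79848210, minus strand). It had the most peaks of the 9 genes, 37. The region at its start (chr7:79847029-79848492) was covered by H3K9cr over 560, 738, 1045 and 1063 bp in control and 919, 839, 730 and 722 bp after UUO, and these overlap. A second region inside the gene, from 3141 bp after the start (chr7:79840851-79845069), was covered over 2200, 2271, 3374 and 3505 bp in control and over 913, 777, 1133 and 644 bp after UUO. All UUO libraries lay below all controls there. Over the window, H3K9cr was 3365, 3382, 4890 and 4991 bp in control and 2177, 1616, 2298 and 1366 bp after UUO, again without overlap. H3K9ac covered this inner region over 1507 and 1684 bp in control, and after UUO in 1 of 4 libraries, ACSS2-/- replicate 1, over 1017 bp.

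To ask how UUO changed the marks, covered length was compared between 4 UUO and 4 control H3K9cr libraries. At 5 of the 8 genes with a peak, Agtr1a, Mas1, Enpep, Mme and Anpep, every UUO library was below every control library, and at none was every UUO library above. Of 27717 genes tested, 16.7% were lower in this sense and 2.42% higher. Anpep had 4157 ± 906 bp in control and 1864 ± 446 bp after UUO (SD, n = 4 each), 2.23-fold shorter. Mas1, whose regions all overlap Airn, had 4592 ± 3138 bp and 229 ± 270 bp. Agtr1a was 1.85-fold shorter, Mme 1.75-fold and Enpep 1.67-fold. These folds do not allow for the smaller totals of the UUO libraries. For each of the 5 the exact two-sided permutation test gave p = 0.0286, the smallest that 4 against 4 allows, and an adjusted p of 0.149 after Benjamini-Hochberg correction over all genes tested. No gene passed 0.05 after correction, and 5312 had an unadjusted p under 0.05. Agt differed by -1086 bp (exact permutation p = 0.143), Ren1 by 375.5 bp (exact permutation p = 0.429) and Ace by 238.75 bp (exact permutation p = 0.629).

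**Figure D3:**
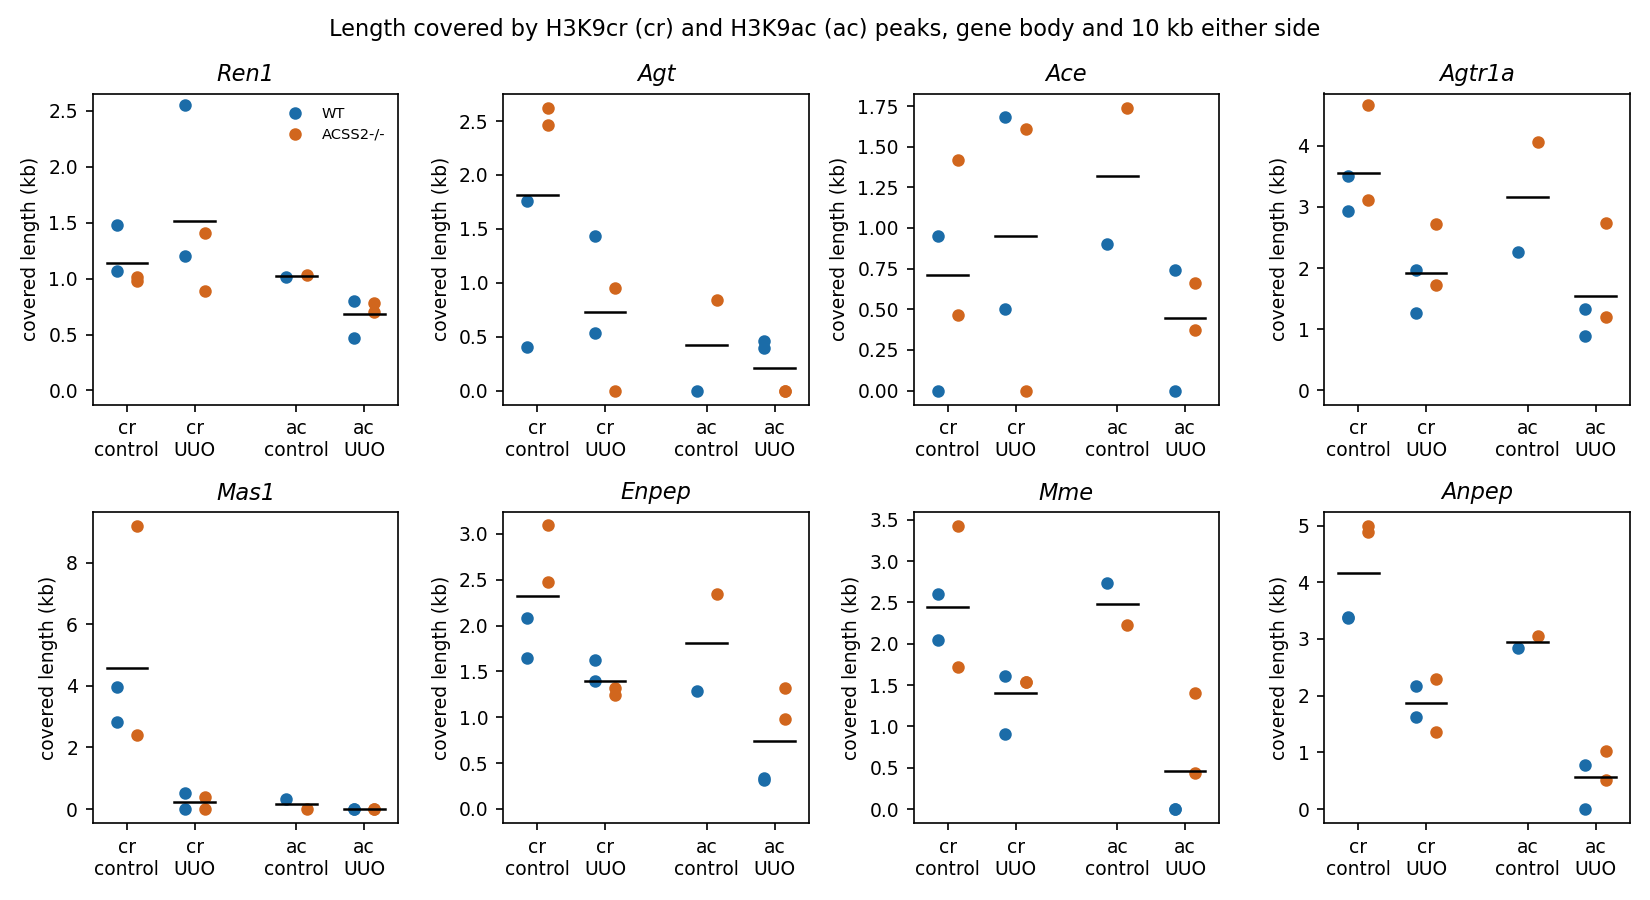
Covered length in kb (y axis, linear, from 0) of H3K9cr (cr) and H3K9ac (ac) peaks in the window of each of the 8 genes with a peak, 1 point per library (blue WT, orange ACSS2-/-, points of equal value overlie) with the group mean as a bar. Points of UUO lie wholly below those of control in H3K9cr for Agtr1a, Mas1, Enpep, Mme and Anpep and in H3K9ac for Ren1, Ace, Mme and Anpep.

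The count depended on how the smaller totals of the UUO libraries were treated. With each value expressed as a share of the library's total covered length, scaled to the mean total, Mas1 and Anpep stayed lower in every UUO library, 2 of 8, and the split over all genes turned to 7.47% lower and 14.5% higher. On that scale the median of all genes shifted from -236.5 to 175.8 bp, whereas the median of the 8 genes moved from -1065 to -546 bp. With the 15988 longest peaks of every library, or the longest 50%, 1 of 8 genes did not overlap, Anpep, against 13.2% and 14.7% of all genes lower. With the 15988 longest peaks the mean of Agtr1a was 3083 bp in control and 1178 bp after UUO, and that of Mas1 was 2585 and 0 bp, with overlapping groups. Within 3 kb of the start alone, the groups did not overlap at 1 gene, Mme, against 11.7% of all genes lower. With 3 kb in place of 10 kb on either side of the gene, the same 5 were lower, against 15.3% of all genes. Ren1 was then higher in every UUO library, 1 of 8, against 2.32%, its window ending inside the Etnk2 start region. Smaller sets of libraries left more genes of the genome without overlap. At Agtr1a, Mas1, Enpep, Mme and Anpep the groups do not overlap over all libraries, so any subset had to return these genes. Within WT the same 5 genes were lower, against 26.4% of all genes, and within ACSS2-/- these 5 and Agt, against 51.5%. In the libraries with chromosome Y peaks, 2 UUO and 3 control, the same 5 were lower and Ren1 and Ace higher, against 27% of genes lower and 12.1% higher. In those without, 2 UUO and 1 control, these 5, Agt and Ren1 were lower, 7 in all, against 49.8%.

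Of the 38 regions, 9 carried H3K9cr in all 4 control libraries. Of these 9, 3 had no peak in any UUO library, against 6.46% of 20050 such regions on the autosomes. They were the inner region of Agt and 2 of Mas1, which also overlap Airn. Shorter in every UUO library were 4 of the 9, the inner region of Anpep in addition, against 27.9%. Of 6 regions with H3K9cr in all 4 UUO libraries, 0 were absent from all controls, against 2.2% of 16631. When only the longest peaks were kept, 1 region of 4 present in all controls was absent after UUO, against 5.06% of 9947 regions with the equal number of peaks and 6.19% of 11910 with the longest 50%.

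H3K9ac was compared between 4 UUO and 2 control libraries. At 4 of the 8 genes with a peak, Ren1, Ace, Mme and Anpep, every UUO library was below both controls, and at none above. This has to be set against 45.9% lower and 0.379% higher among 24518 genes, which is close to the share at these 8 genes. Anpep had 2942 ± 148 bp in control (SD, n = 2) and 573.5 ± 435 bp after UUO (SD, n = 4), and Mme 2481 ± 362 and 461 ± 664 bp. The exact permutation test gave p = 0.0667 at all 4, the smallest possible, with an adjusted p of 0.169, and no gene could pass 0.05. Without the single WT control library the count was 7 of 8, all but Mas1, but 81% of all genes were then lower than the 1 remaining control library. As a share of total covered length only Anpep stayed lower, and the genome split turned to 11.7% lower and 20.9% higher. The median difference was -976.5 bp for the 8 genes and -895.75 bp for all genes.

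The other genes of the pathway were read from a list of 12 peptidases, receptors and associated proteins. Of 9 with an H3K9cr peak, 1 was lower after UUO and none higher, against 16.7% and 2.42% of all genes. This was Klk1, tissue kallikrein, which forms kinins, with 5000 ± 2242 bp in control and 585 ± 415 bp after UUO (SD, n = 4 each). The groups overlapped at Agtrap, which binds the type 1 receptor, at Lnpep, the angiotensin IV receptor, and at the peptidases Prcp, Prep, Nln, Thop1, Ctsa and Cma1, the last with a peak in 1 control library. Cpa3, Mcpt4 and Ctsg, products of mast cells and granulocytes, had no peak of either mark. The list's median difference in H3K9cr was -116.5 bp. For H3K9ac, 3 of 8 were lower, Klk1, Prep and Nln, with a median of -982.5 bp. This count was not above the 45.9% of all genes that were lower in H3K9ac. Of the 8 genes listed for juxtaglomerular renin cells, several of which other cells also use, 7 had H3K9cr peaks and 0 were separated in either direction (median 2.5 bp). In H3K9ac 3 of 7 were lower (median -2102 bp), again not above the share over all genes. Akr1b7, a defining marker of these cells, had no peak in any library, and Ren1 none in its body.

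Markers of other kidney cells moved at the same time. In H3K9cr, 6 of 10 proximal tubule genes were lower after UUO and 0 higher, among them Slc22a8 (from a mean of 11940 to 640 bp), Slc34a1 (from 10632 to 1648 bp), Slc27a2, Slc5a12, Lrp2 and Slc22a6. The distal nephron list gave 3 of 7 lower (Slc12a3, Slc4a1 and Atp6v1b1), the endothelial list 3 of 8 (Egfl7, Kdr and Cdh5) and the podocyte list 1 of 6 (Podxl). Of 9 leukocyte genes with a peak, 6 were higher: Ptprc, Tyrobp, Cd74 and the neighbouring C1qa, C1qb and C1qc, whose windows share peaks. Summed over the list, leukocyte markers covered at most 8.68 kb in a control library and at least 27.2 kb in a UUO library. Ptprc and the 3 C1q genes had no peak in any control H3K9cr library, and Itgam had none in any library. The stroma list had 1 of 8 higher (Col1a1) and the injured tubule list none separated of 8. Over all genes tested, 16.7% were lower and 2.42% higher in H3K9cr. The median difference in H3K9cr was -5766 bp for the proximal tubule list and 4028.5 bp for the leukocyte list. In H3K9ac, 9 of 10 proximal tubule, 5 of 7 distal nephron, 7 of 8 endothelial and 2 of 6 podocyte genes were lower. Higher were 5 of 9 leukocyte genes and 1 of 7 injured tubule genes, and none of 7 stroma genes was separated. Over all genes tested, 45.9% were lower and 0.379% higher in H3K9ac, so the podocyte count was not above that share. The part of a changed cell makeup in the shorter covered length at Anpep, Enpep, Mme, Agtr1a and Mas1 was not tested.

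**Figure D4:**
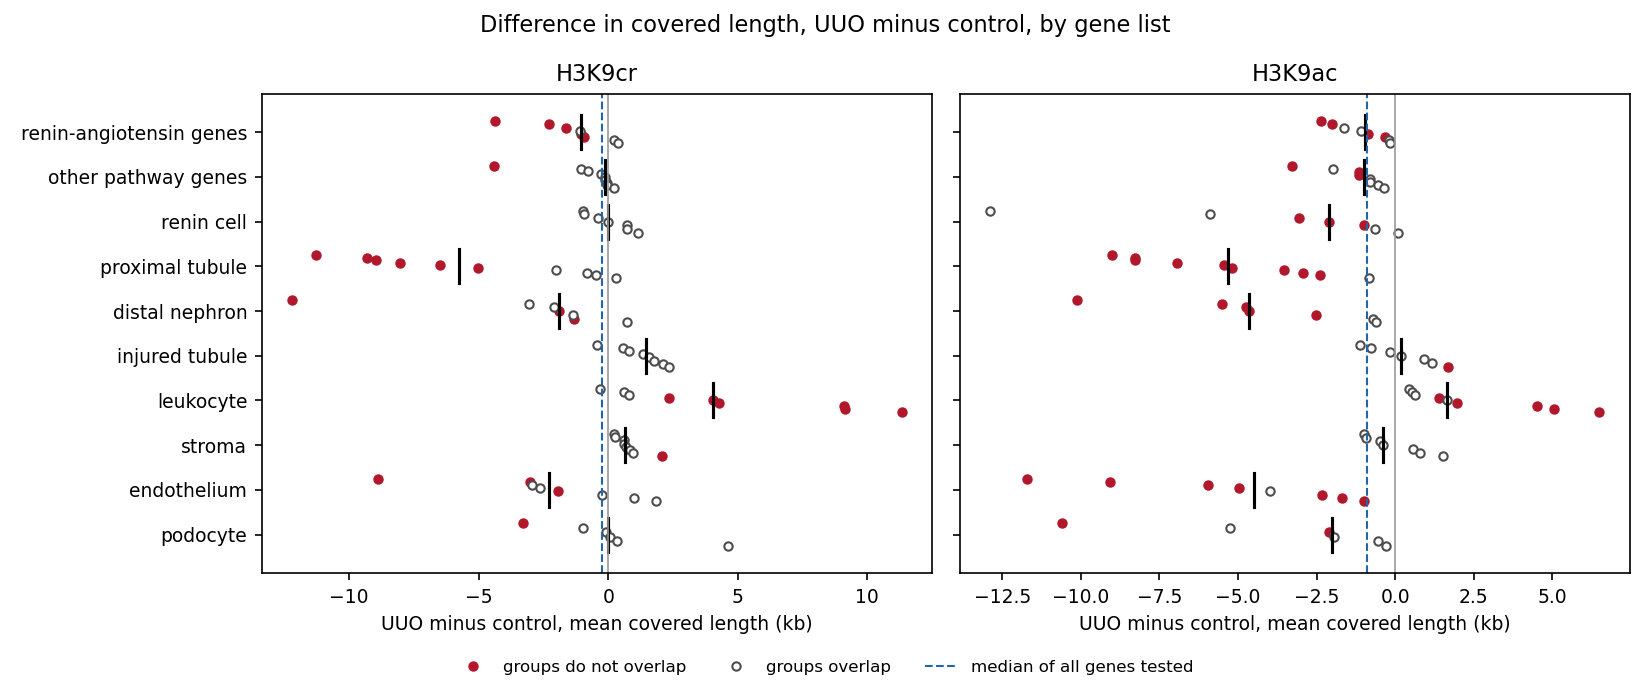
Difference in mean covered length, UUO minus control, in kb (x axis) for each gene with a peak (points) of the renin-angiotensin genes and of 9 other lists (rows), for H3K9cr on the left and H3K9ac on the right. Filled points are genes whose UUO and control libraries do not overlap, black bars are list medians and the dashed line is the median over all genes tested. The renin-angiotensin genes lie at or below the dashed line in H3K9cr except for Ren1 and Ace, the proximal tubule list lies further to the left and the leukocyte list to the right.

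To ask whether loss of ACSS2 changed the marks, 4 ACSS2-/- and 4 WT H3K9cr libraries were compared over both operations. At 0 of the 8 genes were the genotypes separated, and 0 had an unadjusted p under 0.05 by the exact permutation test, as against 237 of 27717 genes. Each genotype held control and UUO libraries, so where these do not overlap the genotypes could not be separated or reach such a p. This was so at Agtr1a, Mas1, Enpep, Mme and Anpep, where the result says nothing of ACSS2. Among all genes 0.235% were lower and 0.621% higher in ACSS2-/-. For H3K9ac, with 3 against 3 and a smallest p of 0.1, the count was again 0 of 8, with 0.0245% lower and 3.29% higher among 24518 genes. At Ren1, Ace, Mme and Anpep the difference between operations likewise made a separation of genotypes impossible in H3K9ac. Agtr1a was 637 bp longer in ACSS2-/- for H3K9cr (exact permutation p = 0.514) and 1179 bp longer for H3K9ac (exact permutation p = 0.3). Mas1 differed by 1168.5 bp in H3K9cr, with ACSS2-/- control replicate 1 highest at 9194 bp.

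Within an operation the values are 2 against 2 and no test could pass. After UUO, Enpep H3K9cr was lower in ACSS2-/- (1317 and 1248 bp against 1620 and 1399 bp), 1 of 8 genes, and none was higher, whereas 23.6% of genes were lower and 6.73% higher. In control kidneys Enpep, Anpep and Agt had more H3K9cr in both ACSS2-/- libraries, 3 of 8, and Ren1 less, against 43.7% of genes higher and 3.27% lower. Anpep was 4890 and 4991 bp against 3365 and 3382 bp there. The ACSS2-/- control libraries covered 64.6 and 51.4 Mb in all and the WT ones 41.7 and 44.8 Mb. As a share of that total, Anpep and Agt overlapped, Enpep stayed higher and Ren1 lower, and 12.5% of all genes were higher and 26.6% lower. For H3K9ac after UUO, Mme and Enpep were higher in both ACSS2-/- libraries and Agt lower, against 28.4% of genes higher and 1.82% lower. Enpep H3K9ac was 1323 and 977 bp in ACSS2-/- and 313 and 338 bp in WT. As a share of the total, Enpep overlapped between genotypes after UUO in H3K9cr, where Agtr1a and Mme became higher in ACSS2-/-, against 17.9% of all genes. On the same scale Enpep, Mme and Agtr1a were higher in H3K9ac and Agt lower, against 13.6% and 16.5%.

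The effect of UUO on H3K9cr was also compared between genotypes. It was -1507 bp in ACSS2-/- and -351.5 bp in WT for Enpep, a difference of -1155.5 bp with an exact permutation p of 0.0556, the smallest the design allows. Over all genes 9.34% reached that p with a more negative value in ACSS2-/-. For Agt the effects were -2071 and -101 bp (exact permutation p = 0.111) and for Anpep -3108.5 and -1477 bp (exact permutation p = 0.167). For Mme they were -1029 and -1060 bp, and for Agtr1a -1670.5 and -1603.5 bp, with an exact permutation p of 1 for both. In control kidneys ACSS2-/- exceeded WT by 928.5 bp at Enpep, 1462.5 bp at Agt and 1567 bp at Anpep. After UUO the corresponding differences were -227, -507.5 and -64.5 bp.

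The marks themselves were compared over all 14 libraries, with marks permuted within the 4 groups. Anpep was longer in H3K9cr than in H3K9ac, by 1253 bp on average over the groups (exact permutation p = 0.00309, adjusted p = 0.0417), 1 of 8 genes. Among 28633 genes 6.46% were longer in H3K9cr and 0.95% longer in H3K9ac at an adjusted p under 0.05. Agt was longer by 956 bp (exact permutation p = 0.00926, adjusted p = 0.0715) and Mas1 by 2328 bp (exact permutation p = 0.139). Ace differed by -55 bp. Per the study, both marks were measured on the same samples. With libraries paired by the replicate number of the label, no gene passed (0 of 8, 6 pairs), the smallest adjusted p being 0.242, and with the 5 pairs that share a number in the peak names the exact p cannot go below 0.0625. The call of Anpep was also lost when any 1 library was left out, as a share of the total, by number of peaks, among the longest peaks and near the start alone. Anpep was already at the smallest p, and leaving out a library leaves fewer arrangements and a larger smallest p. Loss of the call by omission may thus reflect the design alone. No share over all genes is given for these settings.

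Over the 14 libraries, the covered length of each of the 8 genes was set against that of protein-coding genes on other chromosomes, out of 14222 with a peak in at least 7 libraries. The highest Pearson's r was found with Rbm26 for Mas1 (0.98), Rab5c for Anpep (0.97), Zfp879 for Agtr1a (0.96), Nhp2 for Enpep (0.96), Clec12b for Agt (0.95), Pogk for Mme (0.94), Cyp4f18 for Ren1 (0.93) and Prdm4 for Ace (0.88). These values are descriptions over libraries of both marks, which share their total covered length and their groups.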

How the data were processed

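The authors deposited 1 list of peak positions per library, made by aligning paired-end reads to mm10 with Bowtie2, removing organelle, duplicate and poorly mapped reads and calling peaks with MACS2. Tool versions are not given in the sources used here. The study also had input libraries, not used here, and whether MACS2 used them is not stated. Read depth is unknown. Each library was placed in its group by its label. The number inside the peak names differs from the label's replicate number in 4 libraries, and the labels give antibody catalogue numbers that run in sequence over the groups, so whether the groups had different antibodies is not known.

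Peaks were intersected with 47042 autosomal RefSeq genes (GRCm38.p6), widened by 10 kb, with an overlap of at least 1 bp. Covered length was compared by exact two-sided permutation for each gene with a peak, with Benjamini-Hochberg adjustment over all of them. A gene was called lower or higher when the groups' values did not overlap, and the difference between marks when the adjusted p was under 0.05. Strand was known for 25748 genes. The genes and lists were chosen with earlier results of these data known. All 9 genes are described, and from other lists the genes separated in H3K9cr by UUO are named, up to 6 per list, the rest being named after their values were seen. Alternatives were smaller windows, peak number, whole peaks with at least 50% inside, share of total cover, the 15988 longest or longest 50% of peaks, protein-coding genes only, omission of each library, genotype strata and the replicate block. Splits by chromosome Y peaks and by genotype alone, shares of total cover within an operation, pairing by peak names and the alternatives for regions were added after seeing the data. Python 3.11.15, numpy 2.4.6, pandas 2.3.3 and bedtools 2.31.1 were used, and the code was tested on simulated data.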

Additional observations from a re-analysis of the deposited data

Results flagged for a closer look

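At Agt, H3K9ac went opposite ways with UUO in the 2 genotypes: both WT UUO libraries had more than the WT control library (396 and 456 bp against 0 bp), and both ACSS2-/- UUO libraries had less than the ACSS2-/- control library (0 and 0 bp against 836 bp), a difference between the effects of -1262 bp. With 1 control library per genotype this difference was not tested. The peaks lay at the Agt start, except for one of 376 bp that lay 3298 bp upstream, nearer to the start of Capn9, in the ACSS2-/- control library.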

How the results depend on the processing

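The count of genes lower in H3K9cr after UUO was 5, against 16.7% of all genes. It was 1 near the start only (against 11.7%), 1 by number of peaks (4.45%) and 2 as a share of total cover (7.47%). With the equal number of longest peaks it was 1 (13.2%), with the longest 50% 1 (14.7%), and without any 1 library 5 to 6. For H3K9ac it was 4, against 45.9% of all genes. This became 1 as a share (against 11.7%), 2 with the equal number of longest peaks (43.4%) and 1 with the longest 50% (47.5%). Without any 1 library it was 4 to 7 (7 without the WT control library, against 81%). The 3 regions lost after UUO were 1 with either set of longest peaks and 3 to 4 without any 1 library. Leaving out a library could only keep or raise these counts of genes and regions, so their lower ends were fixed in advance. No share over all genes or regions was taken for these omissions, apart from those of an H3K9ac control library. Between genotypes the H3K9cr count of 0 was 0 to 1 without any 1 library (Ren1, without ACSS2-/- UUO replicate 1). The H3K9ac count of 0 was 1 with the equal number of longest peaks, against 4.18% of all genes higher and 0.266% lower. It was 1 with the longest 50%, against 3.83% higher and 0.0101% lower. Within operation it was 1, and without any 1 library 0 to 2 (2 without WT control, 1 without either ACSS2-/- UUO library). No share over all genes was taken for the genotype counts within operation or without any 1 library. The single gene called between marks, Anpep, was lost near the start, by number of peaks, as a share and with both sets of longest peaks (0 each), and without any 1 library (0 to 0). The omissions also raise the smallest p that the test between marks can reach, and no share over all genes is given for these settings. Enpep, the gene at the smallest p for the genotype difference in the effect of UUO, was replaced by Anpep near the start only (1), and was no longer so by number of peaks, as a share and with both sets of longest peaks (0 each), nor without either ACSS2-/- UUO library, WT control replicate 1 or ACSS2-/- control replicate 1 (0 to 1). The cause was not tested, beyond the fewer libraries or peaks by construction.

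Of 129 values, 98 kept their call, 28 lost it and 3 changed sign. They were values of single genes and, for protein-coding genes only, the share of genes lower in each mark, which counted as kept. Leaving out a library cannot make separated groups overlap, so every such omission was among the 98 by construction. The sign changed for Anpep H3K9cr by number of peaks (0.25 peaks more after UUO). It also changed for Ren1 H3K9ac as a share (256 bp) and with the equal number of longest peaks (178 bp). Deviations of libraries with the same replicate number in the label correlated between -0.52 and 0.44, the lowest value being that of the marks in ACSS2-/- UUO, so these numbers were not taken to pair libraries. With the replicate block, a gene was counted when all pairs of libraries with the same replicate number differed in the same direction. The groups could still overlap, but genes whose groups do not overlap were counted by construction. Under UUO the count of lower genes was 5 for H3K9cr and 6 for H3K9ac, where only replicate 2 could be paired. Between genotypes it was 2 for H3K9cr (Ren1 and Agtr1a) and 2 for H3K9ac (Agtr1a and Enpep). No share over all genes was taken for these counts. Between marks, called by adjusted p, the count was 0 (6 pairs, smallest adjusted p 0.242). With the replicate block by the numbers in the peak names, added after seeing the data, which cross the marks in ACSS2-/- UUO, it was 0 between marks (5 pairs, smallest adjusted p 0.303).

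Peak lists without heights or read depth cannot show a change of signal within a peak of constant length, and do not tell a peak just under the threshold from no signal. Leaving out a H3K9ac control library leaves 1 control library, so these counts have no spread on that side.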
